A study of Homo sapiens with 12 samples.

Results

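The genes described are 10 brakes and branches of growth factor signalling: SPRED1 and SPRED2, the Sprouty genes SPRY1, SPRY2 and SPRY4, the MAP kinase phosphatases DUSP4, DUSP5 and DUSP6, and MAPK7 and MAP2K5, which encode ERK5 and its activating kinase MEK5. They were chosen by name, and 10 of 10 were found among the 36433 gene symbols of the deposited table and passed the filter on low values that left 13750 genes for testing. The cells were HMEC-1, a human endothelial line from small vessels of the dermis that has been immortalised, and grew in EBM-2 medium with EGM-2 supplements; their RNA was sequenced. Cells received synthetic miR-126, miR-143 or miR-150 mimics, or a non-targeting scrambled RNA as control, each at 50 nM with Lipofectamine RNAiMAX, and were collected after 48 h. Each of the 4 groups had 3 libraries, numbered 2 to 4. All groups were transfected cells of this 1 line, so none shows untransfected cells, and the labels do not say whether libraries of a group came from separate cultures. A p-value here rests on how much libraries of a group differ, and part of that may be technical.

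Growth factor receptors on endothelial cells, such as the VEGF and FGF receptors, switch on RAS, which activates RAF, MEK and the kinases ERK1 and ERK2. SPRED and Sprouty proteins hold this chain back upstream, SPRED proteins by bringing the RAS inhibitor neurofibromin to the membrane, and several DUSP proteins remove phosphate from ERK itself. ERK activity induces many Sprouty and DUSP genes, so their transcripts are commonly read as feedback. MEK5 and ERK5 form a parallel chain that in endothelium is known for inducing the transcription factors KLF2 and KLF4 under flow. SPRED1 is a reported target of miR-126 and MAPK7 a reported target of miR-143.

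A microRNA pairs with transcripts mainly through its seed, bases 2 to 8 from the 5′ end. The mature strands of miR-126 and miR-143 are shown because the matches described next are complements of their seeds, which are in capitals; both are from RefSeq on GRCh38.p14, at chr9:136670653-136670674 and chr5:149428978-149428998, plus strand. The labels do not say which strand the mimics deliver, and the 3p strand was taken.
hsa-miR-126-3p: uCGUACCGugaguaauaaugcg
hsa-miR-143-3p: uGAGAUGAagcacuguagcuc

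The complement of the whole seed of miR-126-3p, CGGTACG, was in the longest annotated 3′ UTR of 37 of 12429 tested genes with one (0.298%), and of 0 of the 10 genes. SPRED1 held the complement of bases 2 to 7 followed by A, GGTACGA, which 142 of these genes (1.14%) had. It lies 525 bases into a 3′ UTR of 5585 bases. The complement of the miR-143-3p seed, TCATCTC, was far commoner, in 1794 genes (14.4%), and 605 (4.87%) had it followed by A. MAPK7 and DUSP4 had the longer form, MAPK7 at base 120 of a 3′ UTR of 313 bases and DUSP4 at base 975 of 3962. SPRY4 had a match to bases 2 to 7 of each microRNA. The SPRED1 and MAPK7 matches are printed because they are the places where the reported pairs could meet; capitals mark the bases that match the seed, on GRCh38, plus strand, at chr15:38352175-38352204 and chr17:19383337-19383366.
SPRED1: ttaactaaatgtaaGGTACGaattattaca
MAPK7: attattctgcaggtTCATCTCagacccacc

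**Figure D1:**
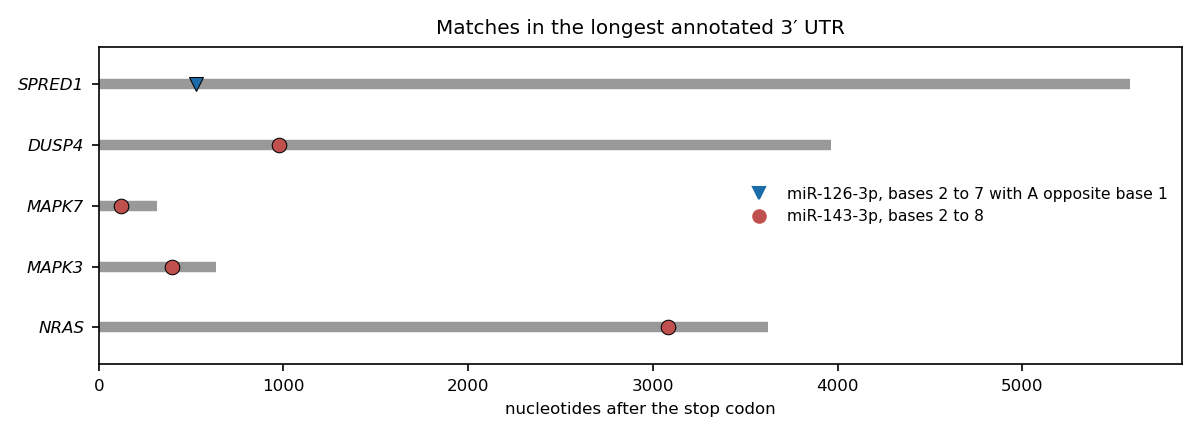
Position of seed matches in the longest annotated 3′ UTR of SPRED1, DUSP4 and MAPK7 and of MAPK3 and NRAS, described at the end; grey bars run from the stop codon to the end of the 3′ UTR, the horizontal axis is in nucleotides, the triangle marks a match to bases 2 to 7 of miR-126-3p with A opposite base 1 and circles mark matches to bases 2 to 8 of miR-143-3p. MAPK7 has the shortest of these 3′ UTRs and SPRED1 the longest.

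Values are TPM, which are scaled by transcript length and sum to 1000000 in each library; they hold no read totals, so depth is unknown. The test was limma on log2(TPM + 1) over all 12 libraries, with Benjamini-Hochberg adjustment over the 13750 genes and a threshold of 0.05 on the adjusted p. Endothelial identity was plain, with 12 of 12 markers at a mean of 1 TPM or more in every group and summed levels of 1446 to 2878 TPM. Of 7 epithelial genes, CDH1 averaged 0.08 TPM, while the summed list, nearly all KRT18 and KRT8, stood at 526 to 579 TPM with the miR-126 mimic, 731 to 952 TPM with miR-143, 902 to 1027 TPM with miR-150 and 449 to 634 TPM in controls. Of 10 fibroblast and pericyte genes, 6 averaged 1 TPM or more, led by COL1A2 (25.1 TPM), COL1A1 (14.0 TPM), ACTA2 (11.0 TPM) and RGS5 (10.2 TPM), while LUM and DCN averaged 0.07 and 0.21 TPM; the sum was 56.8 to 78.6 TPM with miR-126, 44.2 to 64.5 TPM with miR-143, 40.25 to 52.0 TPM with miR-150 and 54.65 to 136.7 TPM in controls. Of 6 leukocyte genes, CD68 averaged 44.1 TPM and PTPRC 0.81 TPM, and the sum was 51.0 to 70.0 TPM with miR-126, 42.3 to 62.4 TPM with miR-143, 27.4 to 59.2 TPM with miR-150 and 29.7 to 48.2 TPM in controls. The part of these genes in the results was not tested. Replicate 4 of miR-143 and replicate 4 of miR-150 stood apart from the other libraries. In them the deviation of genes from the mean of all libraries fell with transcript length (Spearman's rho of -0.40 and -0.55 across genes, against -0.01 to 0.29 in the other 10), so they favour short transcripts. Where this pair enters a comparison with the controls, values without it are also given for the 10 genes.

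In control cells the order of mean levels was DUSP6, DUSP5, DUSP4, MAPK7, SPRED1, SPRY2, MAP2K5, SPRED2, SPRY1 and SPRY4, with 58.8 ± 1.93 TPM for DUSP6 and 5.52 ± 1.24 TPM for SPRY4 (SD, n = 3). Neighbours in this order had ranges that overlapped, except DUSP4 over MAPK7 and MAP2K5 over SPRED2. So the phosphatases were the most abundant transcripts of the set and SPRY4 the least. The order was not the same with the mimics: DUSP5 led with miR-143, at 85.5 ± 28.9 TPM, and its range lay above that of DUSP6.

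**Figure D2:**
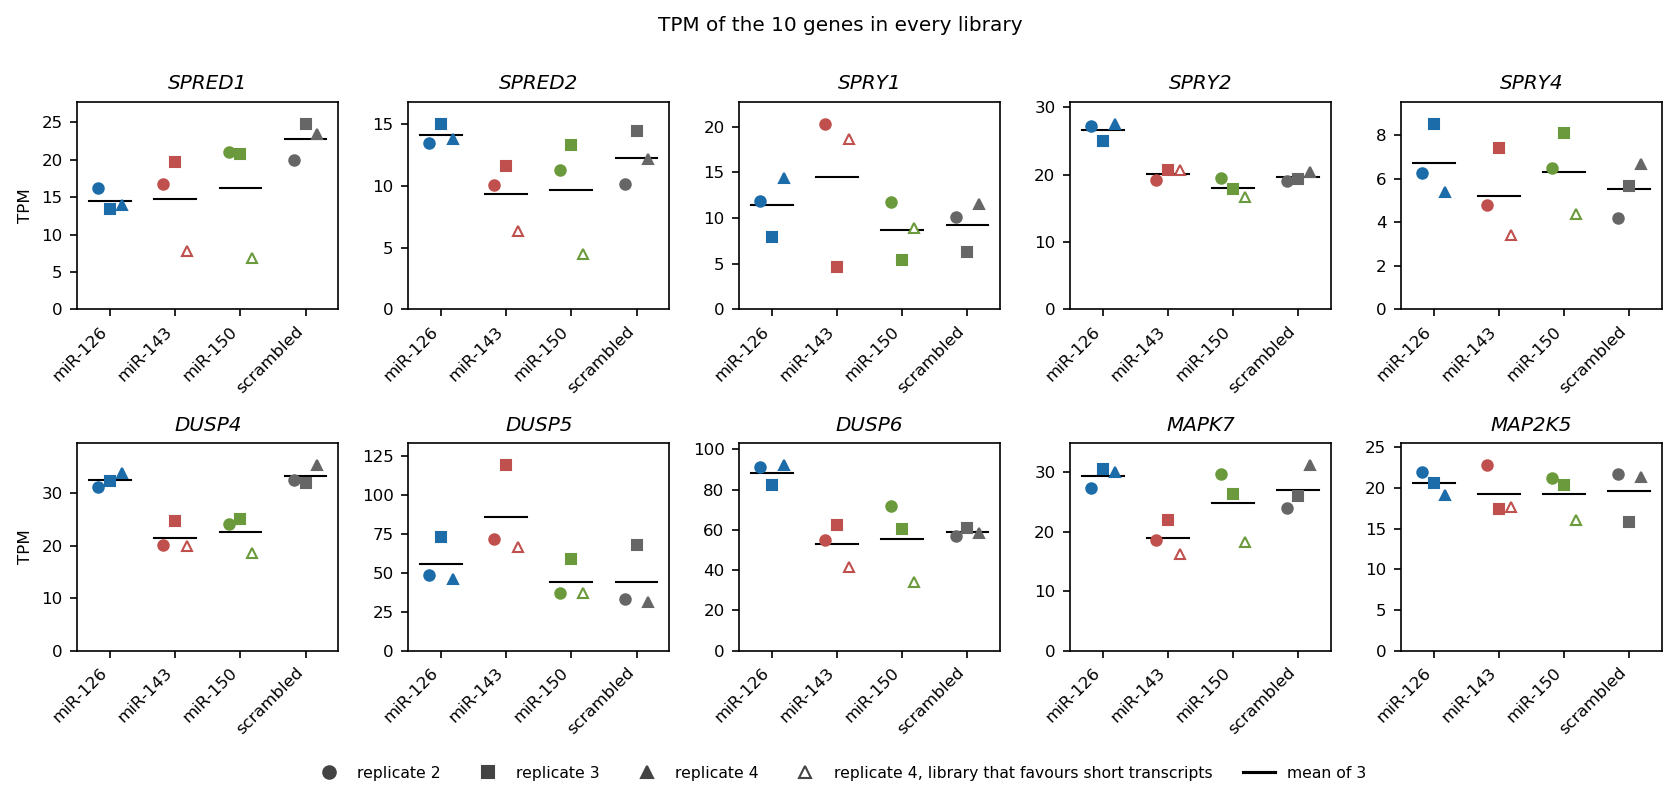
TPM of the 10 genes in each library, by group; symbols give the replicate number, open triangles the 2 libraries that favour short transcripts, and bars the mean of 3. SPRED1 is lower and SPRY2 and DUSP6 are higher in each miR-126 library than in any control, DUSP4 is lower in each miR-143 and miR-150 library, and both open triangles lie low for SPRED1 and SPRED2.

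With the miR-126 mimic, 0 of the 10 genes passed the test over 12 libraries, where 5.11% of all genes tested did (3.37% higher and 1.73% lower); 2 of the 10 had an unadjusted p under 0.05. The 3 mimic libraries lay wholly outside the controls for SPRED1, which was lower, and for SPRY2 and DUSP6, which were higher, a pattern that 34.1% of all genes showed in this comparison (23.1% higher and 11.1% lower). In bulk RNA a lower level in each cell and fewer cells that express the gene cannot be told apart. Without the 2 libraries named above, which are not part of this comparison but enter the shared estimate of spread, these 3 genes passed (13.4% of all genes did), and so they did in a fit of these 2 groups alone (12.2% of all genes). A fit with the replicate number as a block called SPRY2 and DUSP5, with 17.0% of all genes called. The median log2 fold change was 0.22 over the 10 genes and 0.10 over all genes tested; centring each library on its median lowers every fold change of this comparison by 0.14.

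With the miR-143 mimic 1 of the 10 genes, DUSP4, passed and was lower, where 3.32% of all genes were called (1.84% higher and 1.48% lower, and 5.19% without the 2 libraries that stood apart). The mimic libraries lay below the controls for SPRED1, DUSP4 and MAPK7, and 25.3% of all genes did not overlap (11.4% higher and 13.9% lower). With the miR-150 mimic 0 of the 10 passed (3.32% of all genes, 1.08% higher and 2.23% lower), 1 had an unadjusted p under 0.05, and DUSP4 alone of the 10 did not overlap the controls, where 21.5% of all genes did not (6.87% higher and 14.6% lower). Median log2 fold changes of the 10 genes were -0.13 with both mimics, against -0.04 with miR-143 and -0.11 with miR-150 over all genes; leaving out the pair that favours short transcripts turned them to 0.007 with miR-143 and 0.03 with miR-150, against 0.02 with both over all genes. The 3 comparisons share their control libraries.

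**Figure D3:**
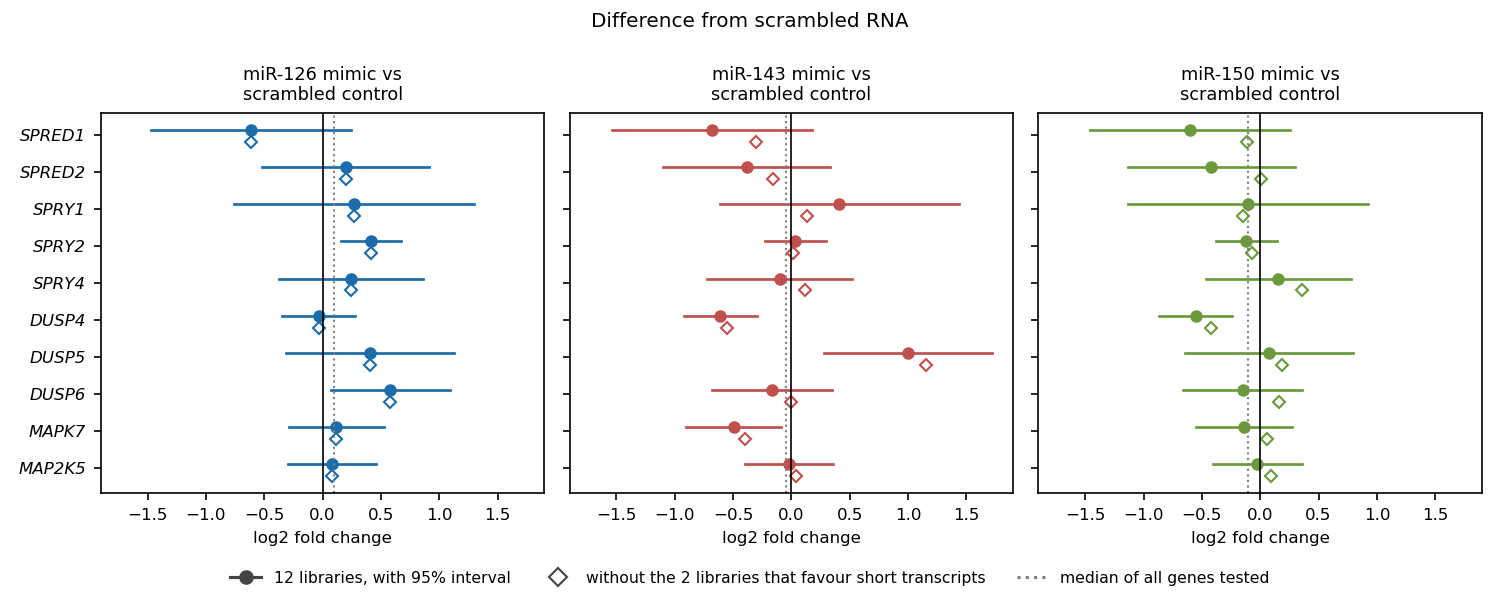
Log2 fold change of each gene with a mimic over scrambled RNA, with its 95% interval (circles, 12 libraries) and leaving out replicate 4 of miR-143 and of miR-150 (open diamonds); the dotted line is the median of all genes tested. SPRED1 lies between -0.68 and -0.60 with the 3 mimics over 12 libraries, and its diamond stays at -0.61 with miR-126 and moves to -0.31 with miR-143 and -0.11 with miR-150.

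SPRED1 (chr15:38252326-38357249, plus strand, GRCh38 as for all genes) encodes an inhibitor that keeps RAS from activating RAF. It stood at 16.2, 13.5 and 13.9 TPM with the miR-126 mimic (replicates 2, 3 and 4) and at 20.0, 24.8 and 23.45 TPM in controls. Every miR-126 library was below every control, and the groups did not overlap. The log2 fold change was -0.61 (SE 0.391, limma adjusted p = 0.441), and -0.61 (SE 0.123, adjusted p = 0.0127) without the 2 libraries. In a fit of these 2 groups alone the adjusted p was 0.0258, and with the replicate block 0.216.

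With miR-143, SPRED1 had 16.7, 19.7 and 7.77 TPM, and with miR-150 it had 21.0, 20.8 and 6.91 TPM, against the same controls. In both groups replicate 4, a library that favours short transcripts, was far below the other 2. Log2 fold changes of -0.68 with miR-143 and -0.60 with miR-150 (adjusted p = 0.426 and 0.471) became -0.31 and -0.11 without these libraries (adjusted p = 0.252 and 0.749). Between miR-126 and miR-150 the fold change was -0.01 over 12 libraries and -0.50 without the 2 (adjusted p = 0.987 and 0.0742), and between miR-126 and miR-143 it was 0.07 and -0.31 (adjusted p = 0.947 and 0.279). Pairing holds for both, and the block alone gave adjusted p values of 0.979 and 0.903. With the block and without the pair, SPRED1 was called lower with miR-126 than with miR-150 (-0.50, adjusted p = 0.0377) and not called against miR-143 (-0.31, adjusted p = 0.171). So a lower SPRED1 with miR-126 than with miR-150 was called in that fit alone of these 4.

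Most SPRED1 TPM (61.5%) belonged to ENST00000299084, the coding transcript of 7780 bases that carries the miR-126 match. It had 8.84, 7.32 and 7.31 TPM with the miR-126 mimic against 13.6, 14.9 and 14.8 TPM in controls. The groups were apart, and the mimic libraries were close to each other. Its log2 fold change was -0.81 (SE 0.324, adjusted p over transcripts = 0.389), with an adjusted p of 0.0301 without the 2 libraries. This transcript was also below every control with miR-143 (12.17, 12.28 and 6.22 TPM) and with miR-150 (11.5, 11.97 and 4.994 TPM). Its log2 fold changes with these mimics were -0.512 and -0.638, and -0.221 and -0.276 without the 2 libraries, and none was called. So its separation from the controls was not particular to miR-126. The shorter coding transcript ENST00000561317 (25.0% of SPRED1 TPM, 527 bases) was listed at 0 in replicate 4 of miR-143 and at 0.0101 TPM in replicate 4 of miR-150, and ENST00000561205, a processed transcript, held 13.5%. Over the 25 transcripts of the 10 genes with a mean of at least 1 TPM, 0 passed in limma against the controls (4, 3 and 1 of 25 had an unadjusted p under 0.05 with miR-126, miR-143 and miR-150), where 0.571%, 0.310% and 0.379% of 58341 transcripts passed with these mimics.

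SPRED2 (chr2:65310851-65432637, minus strand) is a close relative of SPRED1 with the same kind of action. It had 13.5, 15.0 and 13.8 TPM with the miR-126 mimic, against 10.2, 14.45 and 12.2 TPM in controls, and the groups overlapped. The log2 fold change was 0.20 with a 95% interval of -0.52 to 0.91 (adjusted p = 0.820). Its low values in replicate 4 of miR-143 (6.38 TPM) and of miR-150 (4.46 TPM) were its lowest of all, as for SPRED1. Its fold changes were -0.38 with miR-143 and -0.42 with miR-150 (adjusted p = 0.623 and 0.553), and -0.15 and 0.01 without these libraries (0.661 and 0.987).

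SPRY2 (chr13:80335976-80340951, minus strand) encodes a Sprouty protein that restrains receptor signalling to RAS. With the miR-126 mimic it had 27.2, 25.0 and 27.5 TPM, against 19.1, 19.4 and 20.4 TPM in controls. Every miR-126 library was above every control, and both groups were tight, at 26.5 ± 1.37 TPM and 19.6 ± 0.693 TPM (SD, n = 3). The log2 fold change was 0.42 (SE 0.119, adjusted p = 0.0708); the replicate block gave an adjusted p of 0.0223, leaving out the 2 libraries 0.0217, leaving out replicate 4 of miR-150 alone 0.0316 and the fit of 2 groups 0.0349. Centring each library on its median gave 0.28 (adjusted p = 0.318).

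With miR-143, SPRY2 had 19.1, 20.6 and 20.7 TPM, and with miR-150 it had 19.55, 17.8 and 16.7 TPM. Both overlapped the controls, with fold changes of 0.03 and -0.12 (95% intervals -0.23 to 0.30 and -0.38 to 0.14), and 0.02 and -0.07 without the pair. miR-126 was higher than both, by 0.38 over miR-143 (adjusted p = 0.134, 0.0434 with the block and 0.0749 without the pair) and by 0.54 over miR-150 (SE 0.119, adjusted p = 0.0335, and 0.0346 without the pair), where SPRY2 was the 1 of the 10 genes that passed and 3.91% of all genes did (3.11% higher). That call was near the threshold. Leaving out 1 of 11 of the 12 libraries in turn gave adjusted p values of 0.0505 to 0.142, without replicate 2 of miR-143 it was 0.0450, and median centring gave a fold change of 0.27 (adjusted p = 0.355).

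SPRY1 (chr4:123396795-123403760, plus strand) and SPRY4 (chr5:142310427-142326455, minus strand) are Sprouty genes of the same feedback family. SPRY1 had 11.9, 7.92 and 14.3 TPM with miR-126, 20.3, 4.65 and 18.6 TPM with miR-143, 11.8, 5.39 and 8.90 TPM with miR-150 and 10.05, 6.25 and 11.5 TPM in controls. Replicate 3 was the lowest in every group, and the groups overlapped. Its fold changes were 0.27, 0.41 and -0.11 (adjusted p = 0.831, 0.720 and 0.937), and those with miR-143 and miR-150 were 0.13 and -0.15 without the pair. SPRY4, the least abundant, ranged from 5.40 to 8.51 TPM with miR-126, 3.43 to 7.40 TPM with miR-143, 4.39 to 8.08 TPM with miR-150 and 4.21 to 6.66 TPM in controls. All groups overlapped, with fold changes of 0.24, -0.10 and 0.15 (adjusted p = 0.721, 0.895 and 0.825); without the pair the last 2 were 0.12 and 0.36.

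DUSP6 (chr12:89347232-89353271, minus strand), a cytoplasmic phosphatase selective for ERK1 and ERK2, was the most abundant of the 10 with miR-126. It had 91.3, 82.2 and 92.1 TPM, against 56.9, 60.8 and 58.65 TPM in controls. The groups did not overlap, and the means were 88.5 ± 5.52 TPM and 58.8 ± 1.93 TPM (SD, n = 3). The log2 fold change was 0.58 (SE 0.233, adjusted p = 0.194). The adjusted p was 0.0793 with the replicate block, 0.00570 without the 2 libraries, 0.0285 without replicate 4 of miR-150 alone, 0.00849 in the fit of these 2 groups and 0.0483 in protein-coding transcripts alone, where the fold change was 0.65 and 6.46% of all genes were called. Median centring gave 0.44 (adjusted p = 0.112), quantile normalization 0.53 (0.089) and removal of the length trend 0.46 (0.127), so none of these called it.

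DUSP6 had 55.1, 62.55 and 41.5 TPM with miR-143 and 71.9, 60.2 and 34.0 TPM with miR-150. Replicate 4 was the lowest in both, and both groups overlapped the controls (fold changes of -0.17 and -0.15, adjusted p = 0.778 and 0.788, and -0.002 and 0.16 without the pair). Relative to miR-143 and miR-150, DUSP6 with miR-126 was higher in all libraries, by 0.75 and 0.73 (adjusted p = 0.135 and 0.102, and 0.0437 and 0.0338 with the block). Without the 2 libraries these differences were 0.58 and 0.42 (adjusted p = 0.0189 and 0.0601). Of its 4 transcripts above 1 TPM, 3 were apart from the controls with miR-126, among them the coding ENST00000547291 at 24.2, 22.5 and 32.9 TPM against 17.0, 11.1 and 11.5 TPM (fold change 0.96, adjusted p = 0.125). Among all genes 34.1% did not overlap in this comparison, and the share among all transcripts was not taken. Transcripts of 1 gene share reads, so these are not separate observations.

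DUSP4, a nuclear phosphatase of ERK and related kinases, fell with miR-143. It had 20.1, 24.7 and 19.85 TPM, against 32.4, 31.9 and 35.3 TPM in controls. The groups did not overlap, and the means were 21.5 ± 2.72 TPM and 33.2 ± 1.80 TPM (SD, n = 3). The log2 fold change was -0.61 (SE 0.143, adjusted p = 0.0426), and -0.56 (adjusted p = 0.0262) without the 2 libraries. Leaving out any 1 of the 6 libraries of this comparison ended the call, with fold changes of -0.71 to -0.56 and adjusted p values of 0.0523 to 0.192. It also ended with any 1 miR-126 library or replicate 2 of miR-150 out of the shared fit (0.0559 to 0.0755), and after removal of the length trend the fold change was -0.43 (adjusted p = 0.185).

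DUSP4 was also below the controls with the miR-150 mimic, whose seed was not searched. It had 24.0, 25.0 and 18.5 TPM there, with a fold change of -0.55 (SE 0.143, adjusted p = 0.0625) and -0.42 (adjusted p = 0.0769) without the 2 libraries. Between miR-143 and miR-150 the fold change was -0.06 with a 95% interval of -0.37 to 0.26, so a difference between these mimics was not shown. With miR-126, DUSP4 stood at 31.2, 32.3 and 33.8 TPM and overlapped the controls (fold change -0.03, 95% interval -0.35 to 0.28). miR-126 was therefore above both other mimics, by 0.58 over miR-143 and 0.52 over miR-150 (adjusted p = 0.0644 and 0.0668, and 0.0215 and 0.0230 with the block), with no overlap. Without the pair the first difference was called (0.52, adjusted p = 0.0369) and the second was not (0.39, adjusted p = 0.0892). The summed epithelial list given above was also high with miR-143 and miR-150, and its part in this difference was not tested.

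DUSP5 (chr10:110497838-110511544, plus strand), a nuclear phosphatase selective for ERK1 and ERK2, had the largest SD among controls, 20.55 TPM. It had 48.1, 73.0 and 45.9 TPM with miR-126, 71.3, 118.8 and 66.4 TPM with miR-143, 37.0, 58.9 and 36.7 TPM with miR-150 and 32.7, 67.4 and 30.9 TPM in controls. Replicate 3 was the highest in every group, by a wide margin, and within each replicate number miR-143 was the highest. Against the controls the log2 fold change was 0.996 with miR-143 (SE 0.329, adjusted p = 0.142), 1.15 (adjusted p = 0.121) without the pair and 1.35 (adjusted p = 0.0444) without replicate 3 of the controls. The block gave an adjusted p of 0.000584 with miR-143, though over all genes the replicate numbers did not pair these groups. With miR-126 the fold change was 0.40 (adjusted p = 0.567, and 0.0248 with the block), and with miR-150 it was 0.07 (adjusted p = 0.937), and 0.19 without the pair. Between mimics it was -0.59 for miR-126 over miR-143 and 0.92 for miR-143 over miR-150 (adjusted p = 0.409 and 0.216, 0.00720 and 0.00107 with the block, and 0.331 and 0.333 without the pair).

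MAPK7 (chr17:19377721-19383544, plus strand), which encodes ERK5, had 18.5, 22.0 and 16.3 TPM with miR-143, against 24.0, 26.0 and 31.1 TPM in controls. Every miR-143 library was below every control, though the highest of one and the lowest of the other were close. The log2 fold change was -0.50 (SE 0.187, adjusted p = 0.201), and -0.40 (adjusted p = 0.143) without the 2 libraries. With miR-126 MAPK7 had 27.3, 30.5 and 30.0 TPM and with miR-150 29.75, 26.4 and 18.3 TPM. Both overlapped the controls, with fold changes of 0.12 and -0.14; the first turned to -0.02 with median centring and the second to 0.06 without the 2 libraries.

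The table lists 18 MAPK7 transcripts. Its 4 coding transcripts with an annotated 3′ UTR all carry the miR-143 match, and 4 of its 6 transcripts above 1 TPM are retained-intron forms. Summed, the 4 had 4.48, 5.20 and 2.65 TPM with miR-143, against 9.20, 11.7 and 10.55 TPM in controls. Even the highest miR-143 library was far below the lowest control. In the limma fit on the sum of all protein-coding transcripts of a gene, the MAPK7 log2 fold change was -1.14 (adjusted p = 0.0420). There 4.32% of all genes were called. That sum is not limited to the 4 transcripts, which were not tested on their own as a sum. The other 14 transcripts had 14.0, 16.8 and 13.6 TPM with miR-143, against 14.8, 14.3 and 20.6 TPM in controls, and overlapped. They were not searched for the match. With miR-126 the 4 coding transcripts had 13.5, 10.5 and 6.88 TPM, and with miR-150 7.04, 9.66 and 9.92 TPM, both overlapping the controls. Transcripts of 1 gene share reads, so the split is an estimate, and MAPK7 also overlaps B9D1 and MFAP4 on the opposite strand while the strand setting of the libraries is not stated.

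**Figure D4:**
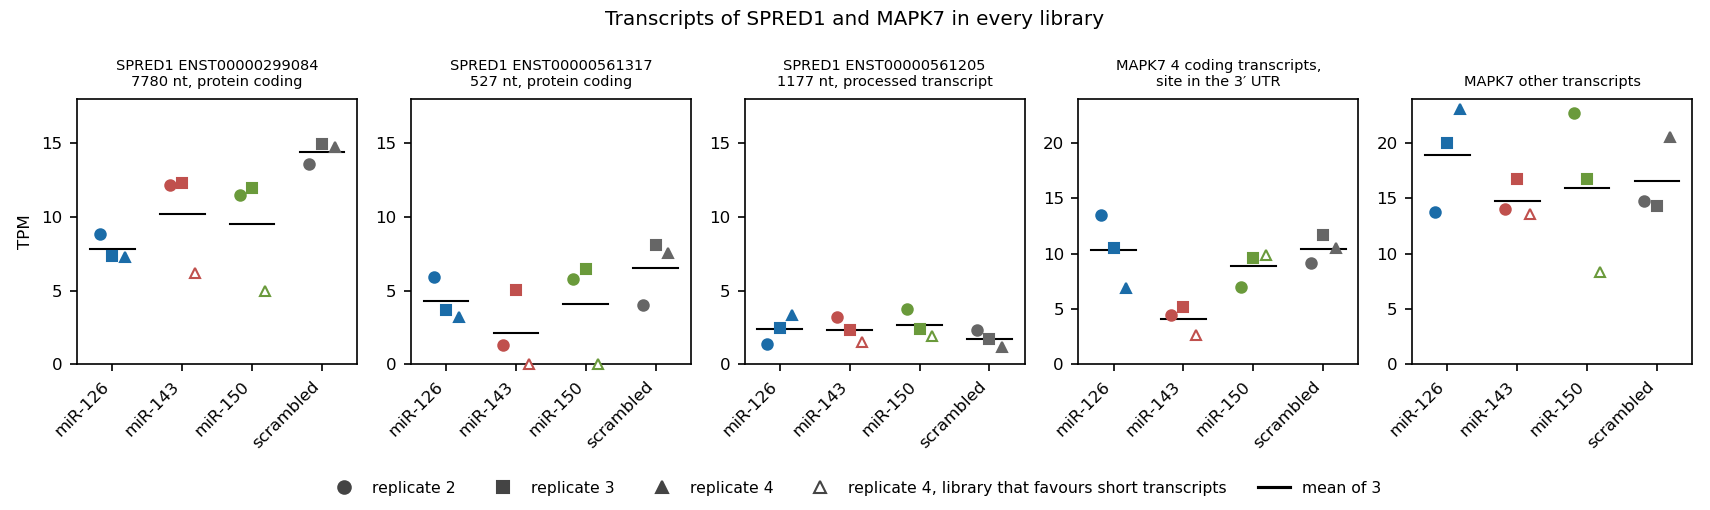
TPM in each library of the 3 SPRED1 transcripts, of the 4 coding MAPK7 transcripts with the miR-143 match and of its other transcripts. The other MAPK7 transcripts were not searched for the match. Symbols give the replicate number, open triangles the 2 libraries that favour short transcripts and bars the mean of 3. The long SPRED1 transcript is lowest on average with miR-126 (7.82 TPM) and the site-carrying MAPK7 transcripts with miR-143 (4.11 TPM).

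MAP2K5 (chr15:67542709-67807123, plus strand) encodes MEK5, the kinase that activates ERK5. It had 22.0, 20.7 and 19.2 TPM with miR-126, 22.8, 17.45 and 17.7 TPM with miR-143, 21.2, 20.4 and 16.1 TPM with miR-150 and 21.7, 15.8 and 21.3 TPM in controls. All groups overlapped the controls, with fold changes of 0.08, -0.02 and -0.02 and 95% intervals that lay within -0.40 to 0.46. The sign of each turned with median centring, to -0.06, 0.03 and 0.10, and without the pair the last 2 were 0.04 and 0.09.

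Among comparisons of mimics, 0 of the 10 genes passed for miR-126 over miR-143 (2.52% of all genes did, 1.46% higher and 1.05% lower) and 4 had an unadjusted p under 0.05. SPRED2, SPRY2, DUSP4, DUSP6 and MAPK7 were higher with miR-126 in all libraries, and 25.4% of all genes did not overlap (19.2% higher). The block called 4 of the 10, SPRY2, DUSP4 and DUSP6 higher and DUSP5 lower (11.0% of all genes), and the fit without the pair called 2, DUSP4 and DUSP6 (4.25% of all genes). For miR-126 over miR-150, SPRED2, SPRY2, DUSP4 and DUSP6 were higher in all libraries (25.9% of all genes did not overlap, 21.8% higher), and the block called the last 3 of these (18.9% of all genes). For miR-143 over miR-150 0 of 10 passed (2.19% of all genes, 1.59% higher and 0.604% lower), 1 had an unadjusted p under 0.05, and DUSP5 was higher in all libraries (15.1% of all genes did not overlap) and was called with the block (9.75% of all genes). Median fold changes of the 10 genes were 0.36, 0.35 and -0.005 in these 3 comparisons, against 0.15, 0.22 and 0.07 over all genes. Without the pair they were 0.25, 0.20 and -0.15, against 0.09, 0.09 and 0.005.

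Over the 12 libraries, the genes among 9105 with a mean of at least 10 TPM whose log2(TPM + 1) followed SPRED1 most closely were ARHGAP35 (Pearson's r = 0.979), NIN (0.969) and TMEM245 (0.964). For MAPK7 they were PSMD5 (0.951), ELK1 (0.944) and PLPBP (0.933). ARHGAP35 had 29.8 TPM with miR-126, 31.8 TPM with miR-143, 31.3 TPM with miR-150 and 41.7 TPM in controls as group means, and was at its lowest in replicate 4 of miR-150. These correlations share the libraries and their deviations by transcript length.

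Other genes of the pathway were read from lists. Of 9 further Sprouty, SPRED and phosphatase genes, 6 could be tested (SPRED3, DUSP1, DUSP7, DUSP8, DUSP10 and DUSP16), and in limma 0 passed against the controls with any mimic (0, 1 and 2 had an unadjusted p under 0.05 with miR-126, miR-143 and miR-150). The most abundant, DUSP1, an early phosphatase, averaged 68.2 TPM with miR-126, 59.7 TPM with miR-143, 88.9 TPM with miR-150 and 60.8 TPM in controls. DUSP16 averaged 12.1, 8.15 and 9.10 TPM with miR-126, miR-143 and miR-150, against 15.3 TPM in controls. With the block 0 of the 6 passed for miR-126 against the controls (17.0% of all genes). Between mimics 0 of the 6 passed over 12 libraries. There the block called SPRED3 higher for miR-126 over miR-143 (11.0% of all genes). For miR-126 over miR-150 it called DUSP8 higher and DUSP1 lower (18.9%). For miR-143 over miR-150 it called DUSP8 higher and DUSP1 and SPRED3 lower (9.75%).

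Of 30 genes of the chain from receptor to ERK, 0 rose and 1 fell with miR-126, 0 rose and 2 fell with miR-143, and 0 passed in limma with miR-150, where 4 had an unadjusted p under 0.05; over all genes 1.73% fell with miR-126 and 1.48% with miR-143. Without the pair the list had 1 call higher and 5 lower with miR-126 (13.4% of all genes called), RPS6KA1 being higher and EGFR, FRS2, NF1, RASA2 and PEBP1 lower. PEBP1, an inhibitor of RAF, fell to 94.4, 121.1 and 92.5 TPM with miR-126, against 215.6, 266.9 and 211.6 TPM in controls. The groups were far apart (log2 fold change -1.17, SE 0.178, adjusted p = 0.00406), and the call held with any 1 of the 12 libraries left out. PEBP1 was also below every control with miR-143 (140.2, 186.8 and 138.9 TPM) and with miR-150 (140.9, 193.7 and 133.9 TPM). It was not called in limma over 12 libraries with either, so a lower PEBP1 was not particular to miR-126. MAPK3, which encodes ERK1, fell to 55.0, 49.4 and 49.9 TPM with miR-143, against 111.2, 96.6 and 113.7 TPM in controls. Its log2 fold change was -1.04 (SE 0.137, adjusted p = 0.00255), and this call too held with any 1 of the 12 libraries left out. MAPK3 was higher with miR-126 than with miR-143 (1.28, adjusted p = 0.000762) and lower with miR-143 than with miR-150 (-1.02, adjusted p = 0.00348, and 0.0908 in a fit of these 2 groups). For miR-126 over miR-150 the block called 3 of the 30 higher and 2 lower (18.9% of all genes). RPS6KA1, a kinase that ERK activates, was the 1 gene of the 30 called there over 12 libraries. It had 37.0, 35.4 and 36.5 TPM with miR-126, against 25.35, 26.2 and 19.35 TPM with miR-150. Its log2 fold change was 0.61 (adjusted p = 0.0290), 0.48 (0.0239) without the pair and 0.35 (0.115) with median centring. The fit of 2 groups gave 0.214, and the call was lost without any 1 miR-126 library, replicate 2 of miR-150 or replicate 2 or 4 of the controls (0.0505 to 0.123).

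NRAS, a RAS gene, had 49.8, 53.3 and 35.5 TPM with miR-143, against 89.3, 97.1 and 98.2 TPM in controls. The groups did not overlap (log2 fold change -1.04, SE 0.217, adjusted p = 0.0254). The call was lost without replicate 2 or 4 of miR-143 (adjusted p = 0.0576 and 0.106) and without any 1 control (0.0721 to 0.115). NRAS was also below every control with miR-126 (80.6, 81.8 and 77.2 TPM) and with miR-150 (75.9, 86.5 and 44.9 TPM), where it was not called. Of the 30 genes, 10 carry the whole miR-143 match in the 3′ UTR, among them both that fell, and 0 carry that of miR-126. These 2 matches are shown for comparison with that of MAPK7, capitals marking the complement of bases 2 to 8, on GRCh38, minus strand, at chr16:30114330-30114359 and chr1:114704999-114705028.
MAPK3: catgcctgccccccTCATCTCattcaaacc
NRAS: ctgcttcttgtaatTCATCTCtgctaataa

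Over all genes with a 3′ UTR, those with the miR-143 match had a median fold change of -0.20 with miR-143 and those without it -0.02. Of the carriers, 85 fell (4.74%) and 26 rose (1.45%), against 1.07% and 2.13% of the genes without it. These values are from the fit over all 12 libraries, which includes replicate 4 of miR-143, a library that favours short transcripts. The part of transcript or 3′ UTR length in this difference was not tested. For miR-126 the 37 carriers had a median of -0.03 and the others 0.10, and 3 carriers fell (8.11%) and 1 rose (2.70%), against 1.85% and 3.68% of the others. The median over the 30 genes was -0.09 with miR-126, -0.31 with miR-143 and -0.37 with miR-150, against 0.10, -0.04 and -0.11 over all genes. Without the 2 libraries that stood apart the last 2 medians of the 30 were -0.14 and -0.002, against 0.02 with both mimics over all genes. With the replicate block, RPS6KA1 was called as higher and EGFR, RASA2 and PEBP1 as lower with miR-126 (17.0% of all genes).

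A list of 21 genes of ERK1 and ERK2 output held genes that ERK is known to induce and factors that it activates, such as ELK1. In this list 1 rose and 0 fell with miR-126, and 1 rose and 0 fell with miR-150. With miR-143 0 passed in limma, and 7 had an unadjusted p under 0.05. Over all genes 3.37% rose with miR-126 and 1.08% with miR-150. FOS, an immediate early transcription factor, had 7.21, 6.24 and 5.97 TPM with miR-126, against 2.22, 1.99 and 1.09 TPM in controls (log2 fold change 1.45, SE 0.280, adjusted p = 0.0135). Its groups were well apart at a low level, and the call was lost without replicate 2 of miR-126 (adjusted p = 0.0669) or replicate 4 of the controls (0.0739). IER2, another immediate early gene, had 66.8, 52.7 and 64.3 TPM with miR-150, against 45.2, 39.35 and 36.1 TPM in controls (0.59, SE 0.139, adjusted p = 0.0405), and the call was kept without replicate 4 of miR-143 or replicate 3 of miR-150 (adjusted p = 0.0381 and 0.0257) but lost without any 1 of the other 10 libraries (0.0543 to 0.195). The median over the list was 0.26 with miR-126, -0.17 with miR-143 and 0.02 with miR-150, against 0.10, -0.04 and -0.11 over all genes. Without the pair the last 2 list medians were -0.03 and 0.19, against 0.02 with both mimics over all genes. With the block, 6 of the 21 were called higher and 1 lower with miR-126 (17.0% of all genes).

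Between mimics, 1 gene of this list passed in each comparison over 12 libraries. For miR-126 over miR-143, miR-126 over miR-150 and miR-143 over miR-150, 9, 6 and 8 of the 21 had an unadjusted p under 0.05. In this order the block called 10 higher and 1 lower, 6 higher and 1 lower, and 2 higher and 5 lower. Over all genes the block called 11.0%, 18.9% and 9.75%. The list's medians were 0.49, 0.26 and -0.21, against 0.15, 0.22 and 0.07 over all genes. Without the pair they were 0.38, 0.09 and -0.25, against 0.09, 0.09 and 0.005. ELK1, a transcription factor that ERK activates, had 34.5, 35.9 and 36.6 TPM with miR-126, against 21.8, 24.96 and 17.2 TPM with miR-143 (0.73, adjusted p = 0.0495). Its call was lost without any 1 library other than replicate 4 of miR-150 (0.0554 to 0.189), while without the pair the fold change was 0.59 (0.0131). ELK1 is 1 of 4 genes of the 21 that carry the whole miR-143 match, with EGR1, FOSL1 and LIF, where 14.4% of tested genes with a 3′ UTR do. MAFF, a small MAF transcription factor, was higher with miR-126 than with miR-150 (means of 14.96 and 5.69 TPM, fold change 1.24, adjusted p = 0.0239). That call was lost without replicate 2 or 4 of miR-126 or replicate 2 of miR-150 (0.05245 to 0.114) and with median centring (0.97, adjusted p = 0.102). CCND1, cyclin D1, was lower with miR-143 than with miR-150 (means of 29.99 and 70.4 TPM, fold change -1.21, adjusted p = 0.0407). It lost its call without the pair (-1.26, 0.0505) and without any 1 library other than replicate 3 of miR-143 or replicate 4 of miR-150 (0.0536 to 0.153). None of these 3 passed in a fit of the 2 groups alone (0.0815 to 0.281).

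Of 10 genes around ERK5, 0 rose and 2 fell with miR-126, and in limma 0 passed with miR-143 or miR-150 (2 and 4 had an unadjusted p under 0.05), where 1.73% of all genes fell with miR-126. KLF4, a transcription factor of quiescent endothelium, had 13.4, 19.0 and 15.5 TPM with miR-126, against 25.6, 23.6 and 29.6 TPM in controls (log2 fold change -0.69, SE 0.160, adjusted p = 0.0313). NOS3, the endothelial nitric oxide synthase, had 20.05, 19.8 and 16.9 TPM, against 30.8, 28.96 and 29.05 TPM (-0.62, SE 0.124, adjusted p = 0.0152). Both were lower in every miR-126 library, and both calls were lost without replicate 2 or 4 of miR-126 or of the controls (adjusted p of 0.103 to 0.153 for KLF4 and 0.0525 to 0.0775 for NOS3). With the block KLF2, another such factor, and THBD, thrombomodulin, were also called lower (17.0% of all genes), and without the pair MAP3K2 and THBD were (13.4%). Relative to miR-143, KLF2 and KLF4 were lower with miR-126, where 1.05% of all genes were (log2 fold changes -1.03 and -1.01, adjusted p = 0.0144 and 0.00892). KLF2 had 48.1, 36.0 and 54.3 TPM with miR-126, against 86.7, 91.8 and 103.8 TPM with miR-143, and the call was lost without replicate 2 of miR-126 or replicate 3 or 4 of miR-143 (0.0506 to 0.0698). The call of KLF4 was lost without replicate 2 of miR-126 (0.0551). Relative to miR-150, where 0.800% of all genes were lower, KLF2 and NOS3 were lower with miR-126 (log2 fold changes -1.25 and -0.83, adjusted p = 0.00470 and 0.00520), with any 1 of the 12 libraries left out too, but not in a fit of these 2 groups (0.0858 and 0.111). THBD and KLF4 were also lower (-1.76 and -0.65, adjusted p = 0.00950 and 0.0471); the call of THBD was lost without replicate 2 or 4 of miR-126 (0.0575 and 0.0538), and that of KLF4 without any 1 library other than replicate 3 of miR-126 or replicate 4 of miR-150 (0.0592 to 0.191). The list's median was -0.37 with miR-126, against 0.10 over all genes, while MAPK7 and MAP2K5 themselves differed by 0.12 and 0.08.

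**Figure D5:**
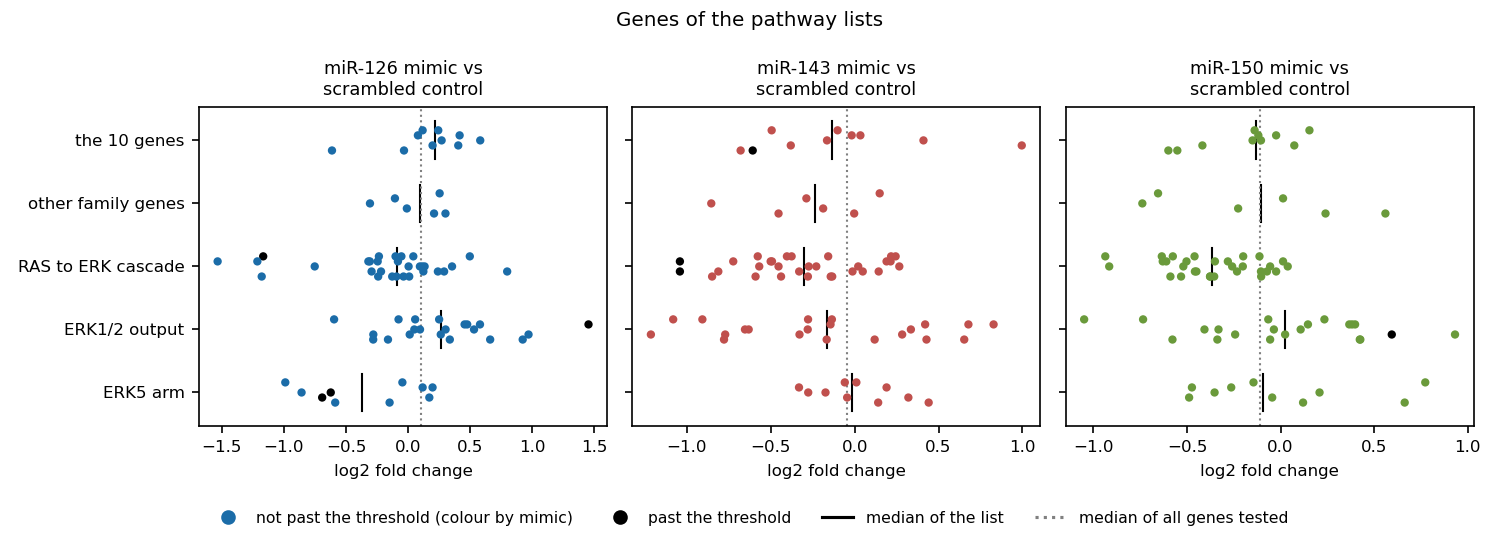
Log2 fold change over scrambled RNA of each tested gene of the 10 genes and of the 4 pathway lists, by mimic; black points passed the threshold, short bars mark the median of a list and the dotted line the median of all genes tested. The median of the ERK5 list lies left of the dotted line with miR-126 (-0.37), and 3 of its 10 genes lie above 0. The median of the chain from RAS to ERK lies left of the line with miR-143 and miR-150 (-0.31 and -0.37). Without the pair of libraries that favour short transcripts those 2 medians were -0.14 and -0.002.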

How the data were processed

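The authors deposited TPM per annotated transcript for 187626 transcripts in 12 columns, made with kallisto, per the submitters' processing notes, which also name FastQC, sleuth and build GRCh38 (hg38). Versions, annotation and strand setting were not given in the sources used here, and read totals are lost in TPM, which keep any bias by transcript length. Columns were matched to samples by name, and TPM were summed per gene symbol. Genes reaching 1 TPM in 3 or more of the libraries were fitted with limma 3.58.1 (R 4.3.3; group as the only term, mean-variance trend, two-sided, Benjamini-Hochberg) on log2(TPM + 1), which understates changes of low genes. The fit was tested on simulated data. Positions and 3′ UTRs came from GENCODE release 29, which held 90.6% of the transcripts by identifier.

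The 10 genes and the lists were chosen with earlier results of these data known. All 10 are named against the control; of the lists, called genes (up to 6 per list and comparison); for SPRED1 and MAPK7, the 3 most similar genes; and transcripts with a mean of at least 1 TPM. Some genes of the lists not past the threshold, and those called with the block, were named after their values were seen. Replicate numbers recur in all groups. Residuals of same-numbered libraries (2, 3 and 4) correlated with 0.29, 0.63 and 0.40 for miR-126 and control, 0.32, 0.66 and 0.37 for miR-126 and miR-143, 0.29, 0.55 and 0.28 for miR-126 and miR-150, and 0.59, 0.63 and 0.74 for miR-143 and miR-150, so a replicate block is given there. Alternatives were another pseudocount, no filter, other scalings, coding transcripts, 2 groups alone and leaving out libraries.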

Additional observations from a re-analysis of the deposited data

How the results depend on the processing

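Over all genes, 702, 457 and 456 were called for miR-126, miR-143 and miR-150 against the control, and 346, 537 and 301 for miR-126 over miR-143, miR-126 over miR-150 and miR-143 over miR-150. In this order the replicate block gave 2331, 1775, 1694, 1515, 2599 and 1340. The block without the 2 libraries that stood apart, chosen after seeing the data, gave 4394, 2302, 1765, 2091, 2455 and 1504. A fit of only the groups compared gave 1673, 266, 57, 187, 19 and 4, and removal of the length trend 1507, 1086, 925, 848, 957 and 654. Without the 2 libraries counts of 1840 (miR-126 over control), 710 (miR-143 over control) and 581 (miR-126 over miR-143) moved by over 1.5 times, as did 764 (miR-143 over control) with quantile normalization. Leaving out 1 library gave 214 to 1368, 139 to 975, 125 to 554, 77 to 808, 125 to 719 and 127 to 354.

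Of the 10 genes, 0, 1, 0, 0, 1 and 0 were called in the same order, and with the replicate block 2, 2, 1, 4, 3 and 1. In the comparisons of miR-143 and miR-150 with control the replicate numbers did not pair the samples (correlations of 0.04, 0.65 and 0.17, and of 0.07, 0.60 and 0.07, with replicate 3 alone the best match of its number); there the block called DUSP4 and DUSP5 (adjusted p = 0.0150 and 0.000584) and DUSP4 (0.0236). The block without the 2 libraries called 4, 2, 1, 5, 5 and 1. Without the 2 libraries alone 3 were called for miR-126 over control and 2 for miR-126 over miR-143. A fit of only the groups compared called 3 for miR-126 over control, 0 for miR-143 over control and 0 for miR-126 over miR-150, and coding transcripts alone 1, 2, 1 and 2 for miR-126 over control, miR-143 over control, miR-126 over miR-143 and miR-126 over miR-150. With no filter miR-143 over control had 0, and with the length trend removed 0, as had miR-126 over miR-150 with median centring, quantile normalization or the length trend removed. Leaving out 1 library gave 0 to 2, 0 to 1, 0 to 0, 0 to 3, 0 to 1 and 0 to 0. Of their transcripts 0 passed; the block called 1, leaving out the 2 libraries 1, both together 2, and leaving out 1 library 0 to 0. The pathway lists held 7 calls against control, 44 with the block, 16 without the 2 libraries, 60 with both, 14 with median centring, 16 with quantile normalization, 13 in a fit of only 2 groups and 31 with the length trend removed, and 2 to 17 with 1 library left out. Seed matches were in 2 of the 10 genes, and in 4 with bases 2 to 7 and A. Bases 2 to 7 alone gave 5 pairs of gene and microRNA, SPRY4 being in a pair with each microRNA. Both of these alternatives were chosen after seeing the data.

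Of 1320 alternative values of single genes, 1101 kept direction and side of the threshold, 124 lost the call, 43 gained it and 52 changed sign, 0 of them where a call had been made. Without the 2 libraries the log2 fold change turned for SPRED2 with miR-150 (0.008), SPRY4 with miR-143 (0.116), DUSP6 and MAPK7 with miR-150 (0.160 and 0.058) and MAP2K5 with miR-143 and miR-150 (0.037 and 0.094). With the block and without these libraries it turned for SPRED2 and SPRY1 with miR-150 (0.002 and 0.019), SPRY4 with miR-143 (0.115), DUSP6 with miR-143 and miR-150 (0.012 and 0.174), MAPK7 with miR-150 (0.117) and MAP2K5 with both (0.044 and 0.102). Median centring moved every fold change by -0.14, 0.05, 0.13, -0.19, -0.27 and -0.08 in the 6 comparisons and turned SPRY1 and SPRY2 with miR-150 (0.023 and 0.008), MAPK7 with miR-126 (-0.020) and MAP2K5 with the 3 mimics (-0.058, 0.033 and 0.104). Quantile normalization turned SPRY1, SPRY2 and MAPK7 with miR-150 (0.039, 0.011 and 0.003), MAPK7 with miR-126 (-0.006) and MAP2K5 (-0.060, 0.031 and 0.106). Coding transcripts turned SPRY4 with miR-143 (0.030) and MAPK7 with miR-126 (-0.060), and removal of the length trend SPRY4 with miR-143 (0.046) and MAP2K5 with miR-126 and miR-150 (-0.043 and 0.053). With 1 library left out, ranges that cross 0 were those with miR-126 of DUSP4 (-0.063 to 0.010) and MAP2K5 (-0.061 to 0.155), those with miR-143 of SPRY4 (-0.345 to 0.116) and MAP2K5 (-0.158 to 0.058), and those with miR-150 of SPRED2 (-0.686 to 0.008), SPRY1 (-0.337 to 0.167), SPRY4 (-0.017 to 0.359), DUSP5 (-0.147 to 0.426), DUSP6 (-0.368 to 0.160), MAPK7 (-0.279 to 0.058) and MAP2K5 (-0.164 to 0.094). The cause of these changes was not tested. Without read totals, counting error cannot be given.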
